A study of Homo sapiens with 2 samples.

Results

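The 10 long noncoding RNAs described here are studied in liver cancer and were followed across the knockdown of CD24, a small glycoprotein of the cell surface: MALAT1, NEAT1, H19, MEG3, HULC, GAS5, TUG1, DANCR, SNHG1 and HOTAIR. They were found by symbol in the annotation of the array's probe sets, each of which is a group of short probes read out as 1 value. Of 54675 probe sets, 31 named only 1 of these RNAs and covered 6 of them: MALAT1 had 12, MEG3 10, TUG1 6, and GAS5, DANCR and HOTAIR 1 each. A further 16 named the RNA together with small RNAs that lie inside its gene, 9 for NEAT1 with MIR612, 2 for H19 with MIR675, 4 for GAS5 with 8 small nucleolar RNAs and 1 for SNHG1 with 8. In the RefSeq gene table all of these small RNAs lay within the bounds of their host, and the 16 probe sets are given below under the host's name with the small RNAs stated. HULC had no probe set named here, so 9 of the 10 RNAs had a value.

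Both arrays of the study came from Huh7, an established line of human liver cancer cells (hepatocellular carcinoma) kept in DMEM with serum and antibiotics. One culture was stably transduced by lentivirus with a non-target control short hairpin RNA (shRNA) and the other with an shRNA against CD24, and total RNA of each was hybridised to 1 array. Whether a culture was a clone or a pool of transduced cells is not given in the sources used here. With 1 array per group no difference has a replicate check, no test was made, and the SD given below is over the probe sets of a gene on this pair of arrays.

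Long noncoding RNAs act as transcripts and not through a protein. MALAT1 and NEAT1 are made from neighbouring genes and stay in the nucleus, MALAT1 in the nuclear speckles that hold splicing factors and NEAT1 as the scaffold of the paraspeckles. H19 and MEG3 are imprinted and expressed from the maternal allele, and H19 also carries the hairpin of miR-675. GAS5, SNHG1 and DANCR are spliced hosts of small nucleolar RNAs, which guide the chemical modification of ribosomal RNA. HULC was named for its raised level in hepatocellular carcinoma, and HOTAIR and TUG1 are known for reported binding to polycomb chromatin complexes. RefSeq classes TUG1 as protein coding and the other 9 as long noncoding RNA.

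The deposited values were log2 values centred within each probe set, so the control and CD24 shRNA values were equal and opposite and held a difference but no level. The quantity below is the log2 difference, CD24 shRNA minus control. CD24 itself was at -1.37 ± 0.38 (SD, 6 probe sets), every one of the 6 being below 0, which bears out the label of the knockdown array. A coarse placement of level came from the number format of the file, whose rounding steps become finer for smaller values. It placed the dimmer array below 4 on the log2 scale, in the dim end of the array, for 10 of the 47 probe sets (21.3%, against 25.5% of all probe sets that name 1 gene), and 22 of the 47 could not be placed. None of the 47 was placed at 8 or above, but only 155 of all 41091 probe sets that name 1 gene were, so this says little of their level. Of the hepatocyte and hepatoma marker probe sets 4 of 15 were placed there (AFP, ALB and FGB), and none of the 15 below 4. Of the stellate and fibroblast markers 11 of 23 probe sets were placed below 4, of the endothelial markers 3 of 7 and of the leukocyte markers 3 of 7. The stellate and fibroblast genes were not all alike between the arrays: 5 of 6 lay above 0, with COL3A1, a fibrillar collagen, at 2.35 ± 1.77 (SD, 5 probe sets) and LUM, a matrix proteoglycan, at 1.12 ± 1.41 (2), and the other 4 within 1.5-fold. Of the endothelial genes 0 of 3, of the leukocyte genes 1 of 3 and of the hepatocyte genes 3 of 6 lay above 0, and the part of any of these in the results below was not tested.

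The sequences below show the start regions of the RNAs that the results return to, and the product that the H19 probe sets also name. They come from RefSeq on GRCh38.p14, read 5′ to 3′ on the strand of the gene. GAS5 (chr1:173868996-173869295, minus strand) and SNHG1 (chr11:62855836-62856135, minus strand), the snoRNA hosts that lay below 0, run from 250 bases before to 50 after the start, with the longest run of C and T after the start in capitals.
GAS5: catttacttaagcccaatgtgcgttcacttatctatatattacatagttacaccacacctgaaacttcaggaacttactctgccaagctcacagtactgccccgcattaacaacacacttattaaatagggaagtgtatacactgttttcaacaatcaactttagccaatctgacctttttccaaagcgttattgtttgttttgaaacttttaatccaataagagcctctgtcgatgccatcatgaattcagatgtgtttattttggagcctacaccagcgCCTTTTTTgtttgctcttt
SNHG1: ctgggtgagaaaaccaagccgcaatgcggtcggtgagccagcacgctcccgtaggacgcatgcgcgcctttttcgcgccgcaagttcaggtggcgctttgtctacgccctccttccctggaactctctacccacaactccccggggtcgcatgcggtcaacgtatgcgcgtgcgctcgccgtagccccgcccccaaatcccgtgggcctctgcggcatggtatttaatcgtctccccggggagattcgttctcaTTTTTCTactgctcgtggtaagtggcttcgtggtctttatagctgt
MEG3 (chr14:100825858-100826157, plus strand, the first of its 3 start sites) is shown over the same span with the cAMP response element in capitals, and TUG1 (chr22:30969015-30969264, plus strand), the RNA with the highest mean difference, over the 250 bases before its start with an E-box in capitals.
MEG3: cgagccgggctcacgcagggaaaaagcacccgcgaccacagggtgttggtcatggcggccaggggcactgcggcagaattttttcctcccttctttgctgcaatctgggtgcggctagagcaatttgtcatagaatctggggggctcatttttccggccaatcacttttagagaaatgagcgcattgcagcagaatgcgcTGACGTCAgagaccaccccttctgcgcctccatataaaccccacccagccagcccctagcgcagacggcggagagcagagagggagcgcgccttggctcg
TUG1: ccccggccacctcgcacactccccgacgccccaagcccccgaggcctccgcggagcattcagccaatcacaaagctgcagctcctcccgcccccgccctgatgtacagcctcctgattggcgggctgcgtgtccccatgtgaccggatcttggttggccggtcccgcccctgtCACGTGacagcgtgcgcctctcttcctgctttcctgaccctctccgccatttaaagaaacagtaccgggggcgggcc
The mature products of MIR675 on the minus strand, the 3p arm at chr11:1996768-1996787 and the 5p arm at chr11:1996800-1996822, have the seed, bases 2 to 8, in capitals, and the seeds differ between the arms.
miR-675-3p: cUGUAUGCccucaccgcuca
miR-675-5p: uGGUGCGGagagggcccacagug

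Among the 31 probe sets that name only 1 of the RNAs, 14 lay above 0, 14 below and 3 were equal on both arrays, with a median of 0, which is also the median over all 41091 probe sets that name 1 gene. The median size of the difference was 0.20, against 0.17 over all of these. One of the 31 was at least 1.5-fold higher with CD24 shRNA, beside 3.85% of all probe sets, and 0 were at least 1.5-fold lower, beside 3.31%. At 2-fold the counts were 0 higher and 0 lower, beside 1.01% and 0.601%. Adding the 16 probe sets that also name small RNAs brought the counts to 17 above, 26 below and 4 equal, with 1 at least 1.5-fold higher, 3 at least 1.5-fold lower and 1 at least 2-fold lower, the last 3 all of NEAT1. Scaling the arrays on their 18 hybridisation control probe sets adds 0.08 to every difference and turned the split of the 31 to 19 above and 12 below, and that of the 47 to 24 and 23. Over all 19775 genes the same scaling turned 9770 above and 9402 below into 12974 and 6801. The counts of gene lists below have these splits as their background. The 1.5-fold counts of the 47 stayed at 1 higher and 3 lower, but the 2-fold call was lost, with the lowest NEAT1 value at -0.93.

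**Figure D1:**
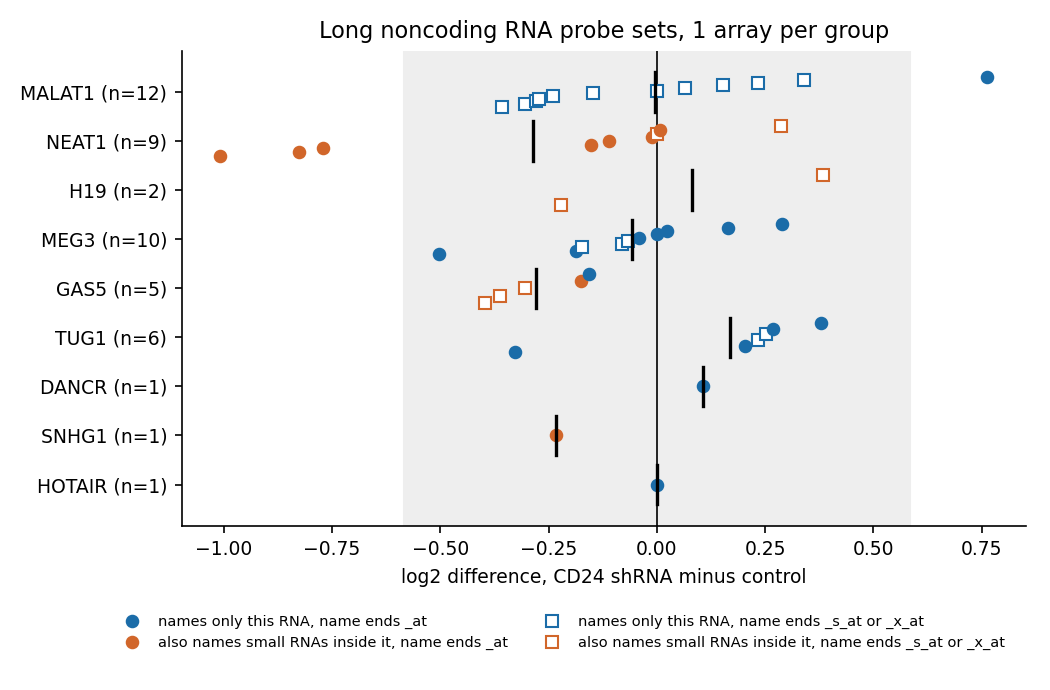
Log2 difference, CD24 shRNA minus control, of each of the 47 probe sets by RNA, with the mean of each RNA as a black bar. The grey band spans differences under 1.5-fold, and 4 points lie outside it, 1 of MALAT1 on the right and 3 of NEAT1 on the left.

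MALAT1, the speckle RNA, had no common direction over its 12 probe sets. On average the log2 difference was -0.0039 ± 0.33 (SD, 12 probe sets), with 5 probe sets above 0, 6 below and 1 equal. Probe set 224559_at read -0.38 in the control and 0.38 in the CD24 shRNA array, a log2 difference of 0.76 or 1.70-fold higher. It was the sole MALAT1 probe set whose name ends in _at alone, and the names of the other 11 end in _s_at or _x_at, a mark for probes that can match more than 1 transcript. Those 11 ran from -0.36 to 0.34 with a mean of -0.07 ± 0.24 (SD, 11 probe sets), 4 above 0 and 6 below. The lowest was 224567_x_at, at 0.18 in the control and -0.18 with CD24 shRNA, and the highest 227510_x_at, at -0.17 and 0.17, whose dimmer array was placed below 4. A single direction for MALAT1 therefore depends on which probe set is read.

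NEAT1, the paraspeckle scaffold, is transcribed as a short and a long form from the same start, and which of them a probe set matches was not examined here. Its 9 probe sets, all of which also name MIR612, were divided at the 1.5-fold line, with 3 at least 1.5-fold lower and the other 6 within it. Probe set 225239_at read 0.50 in the control and -0.50 with CD24 shRNA, a log2 difference of -1.01 or 2.01-fold lower. Probe set 227062_at read 0.41 and -0.41, 1.77-fold lower, and 234989_at read 0.39 and -0.39, 1.71-fold lower. These 3 averaged -0.87, while the other 6 ran from -0.15 to 0.29 with a mean of 0.0035. The cut was made on these same values, so the distance between the means is partly built in. The 6 were 239269_at at -0.15, 224566_at at -0.11, 238320_at at -0.010, 220983_s_at at 0, 224565_at at 0.0081 and 214657_s_at at 0.29, the last placed below 4. Over all 9 the mean was -0.29 ± 0.46 and the median -0.11, so the mean rests on those 3 probe sets. The 7 NEAT1 probe sets with names ending in _at alone averaged -0.41 ± 0.44 (SD, 7 probe sets).

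How far the probe sets of 1 RNA differed from each other was set beside the 1335 genes that have 5 or more probe sets, whose median SD was 0.23. These genes, MALAT1, MEG3 and TUG1 were read from probe sets that name 1 gene. NEAT1 and GAS5 were read with probe sets that also name small RNAs, so their ranks rest on an unlike rule. The SD of NEAT1, 0.46, was above that of 94.2% of these genes, and that of MALAT1, 0.33, above 80.2%. TUG1 (0.25, above 56.3%) and MEG3 (0.21, above 42.0%) lay in the middle, and GAS5 (0.11) was above only 6.97%.

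**Figure D2:**
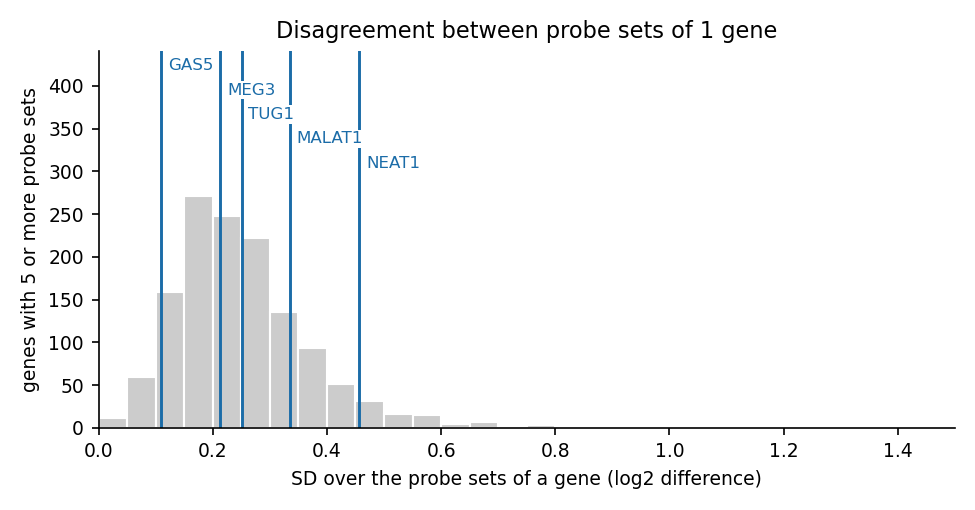
Histogram of the SD over the probe sets of a gene, in log2 difference, for 1335 genes with 5 or more probe sets (1 gene beyond the axis), with lines for the 5 RNAs that have as many. GAS5 lies at the left end, at 0.11, and NEAT1 in the right tail, at 0.46. Unlike the other genes shown, these RNAs are read with probe sets that also name small RNAs.

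No gene of the lists of proteins known to work with the nuclear RNAs passed 1.5-fold, which 2.63% of all genes passed upward and 2.38% downward. Of the paraspeckle proteins 17 of 19 were measured, 6 above 0 and 11 below, with a median of -0.08 (8 above and 9 below when scaled on the hybridisation controls). NONO, a core paraspeckle protein, was at -0.26 ± 0.22 (SD, 3 probe sets), and its paralog PSPC1 one of 0.24 ± 0.34 (5 probe sets). HNRNPA1, a splicing repressor, was at -0.36 ± 0.27 (3 probe sets) and UBAP2L at 0.33 ± 0.08 (4 probe sets). Among the nuclear speckle and SR splicing proteins 6 of the 19 measured lay above 0 and 13 below, with a median of -0.05. When scaled 13 lay above and 6 below, a shift shared by all genes (12974 of 19775 above). CLK2, a kinase of SR proteins, was at -0.41 (1 probe set), SON, a scaffold of the speckles, at -0.23 ± 0.48 (5 probe sets), SRRM2 at -0.18 ± 0.30 (4) and SRSF7 at 0.18 ± 0.09 (4). Of 18 measured genes for nuclear RNA end processing, turnover and methylation 8 lay above 0 and 10 below (11 and 7 when scaled), with a median of -0.03. The largest in size were the RNA demethylases FTO at -0.36 (1 probe set) and ALKBH5 at -0.24 ± 0.18 (3), and the RNase P subunits POP5 at 0.34 (1) and RPP30 at -0.28 ± 0.20 (4).

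GAS5, which is known as a host of small nucleolar RNAs and as a decoy of the glucocorticoid receptor, was the RNA whose probe sets lay closest together. All 5 lay below 0, also when scaled on the hybridisation controls (highest -0.08), with a mean log2 difference of -0.28 ± 0.11 (SD, 5 probe sets) or 1.21-fold lower. Probe set 1560402_at, which names only GAS5, read 0.08 in the control and -0.08 with CD24 shRNA, a difference of -0.16. The 4 that also name the small nucleolar RNAs read 0.20 and -0.20 on 224841_x_at, 0.18 and -0.18 on 224741_x_at, 0.15 and -0.15 on 227517_s_at, and 0.09 and -0.09 on 228238_at. In each the CD24 shRNA array was the lower, with a mean difference over the 4 of -0.31 ± 0.10. No GAS5 probe set was 1.5-fold lower, and the 3 with names ending in _s_at or _x_at, at -0.36 ± 0.05 on average, lay below the other pair.

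SNHG1, the host of another group of small nucleolar RNAs, read 0.12 in the control and -0.12 with CD24 shRNA on its 1 probe set, a difference of -0.23 or 1.17-fold lower. DANCR, which is known from the block of epidermal differentiation, read -0.05 and 0.05 on its 1 probe set, a difference of 0.11. The values of SNHG1 and DANCR, with 1 probe set each, were smaller in size than the pooled SD of 0.27 between single probe sets of 1 gene (31839 probe sets of 10523 genes).

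Other host genes of small nucleolar RNAs, which are spliced transcripts largely valued for their introns, were counted beside them. Of 22 listed, 8 were measured by probe sets that name them alone, with 1 above 0 and 6 below and a median of -0.21. With probe sets that also name the small RNAs inside, a choice made after the values were seen, 20 were measured, 2 above 0 and 17 below (4 and 16 when scaled), with a median of -0.26, against 47.6% of all genes below 0. One of the 20 was at least 1.5-fold lower and none at least 1.5-fold higher, beside 2.38% and 2.63% of all genes. SNHG3 was at -0.89 (1 probe set, 1.85-fold lower), SNHG12 -0.47 ± 0.05 (SD, 3 probe sets), SNHG19 -0.42 (1) and EPB41L4A-AS1 -0.42 ± 0.17 (2). SNHG16 at 0.24 ± 0.29 (2 probe sets) and SNHG20 at 0.08 (1) were the 2 above 0, and SNHG4 was equal on both arrays.

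**Figure D3:**
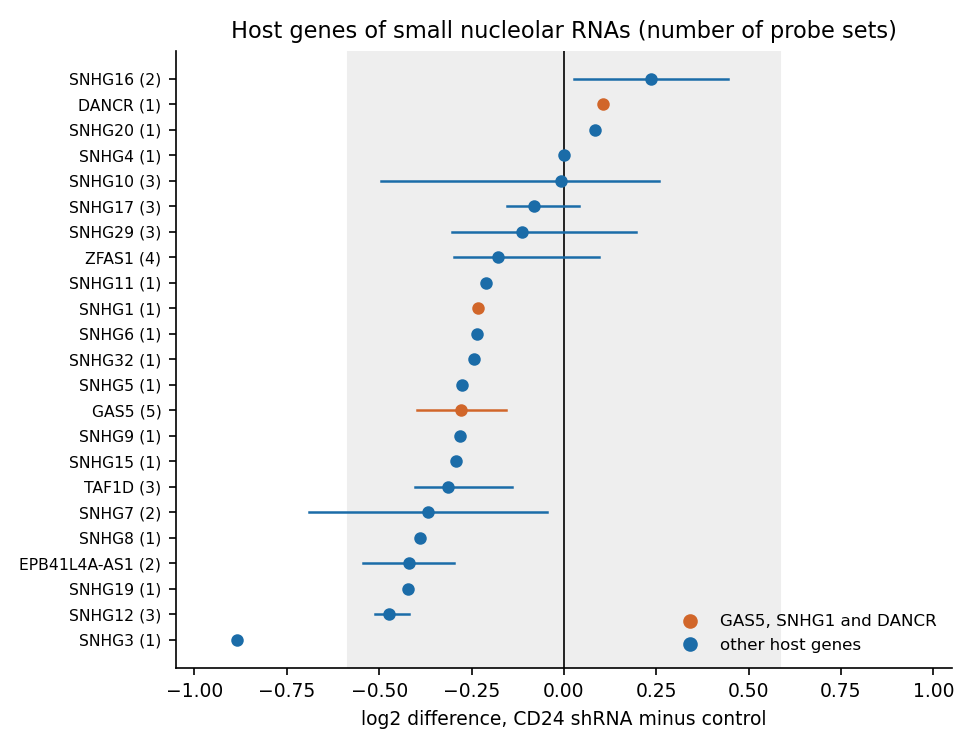
Mean log2 difference, CD24 shRNA minus control, of 23 host genes of small nucleolar RNAs, with the number of probe sets in brackets and a line from the lowest to the highest probe set. GAS5 (-0.28) and SNHG1 (-0.23) lie among the 17 other hosts below 0, DANCR (0.11) lies above 0, and SNHG3 (-0.89) lies outside the grey band of differences under 1.5-fold.

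Many of these hosts begin with a run of C and T, the terminal oligopyrimidine start that also marks many messages of the translation machinery. A C followed by at least 4 more C or T stood at the start in 4.07% of 35116 RefSeq promoters and at 0 of the 10 start sites of the 7 RNAs in the table (MALAT1, H19, MEG3, GAS5, TUG1, DANCR and SNHG1). Of these RNAs only GAS5, DANCR and SNHG1 are such hosts. The starts were taken from RefSeq and not from measured transcript ends. The count therefore cannot decide whether these hosts begin with such a run. In the GAS5 sequence above the longest run after the start was CCTTTTTT, 31 bases downstream, and runs of that length or more were found in 17.1% of promoters. In SNHG1 it was TTTTTCT, 4 bases downstream, with runs as long in 26.7%. Searching for runs downstream of the start was chosen after the sequences were seen.

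A list of other messages known for this start held mostly translation factors, with RPL and RPS genes left out, but also FAU, whose product includes a ribosomal protein, HNRNPA1 and the histone chaperone NAP1L1. Of its 17 genes 13 were measured, with 1 above 0 and 12 below, also when scaled, and a median of -0.16. Beside this, 9402 of all 19775 genes lay below 0, and 6801 when scaled. EIF4B, an initiation factor, was at -0.43 ± 0.07 (SD, 3 probe sets), EIF3L at -0.25 (1) and the elongation factor EEF1A1 at -0.26 ± 0.47 (6). None of the 13 passed 1.5-fold. Of 14 listed factors of nonsense-mediated decay, which degrades spliced GAS5 in growing cells, 8 were measured. Of these 6 lay above 0 and 2 below, also when scaled, with a median of 0.14. Of all 19775 genes 9770 lay above 0, and 12974 when scaled. The endonuclease SMG6 was at 0.37 ± 0.08 (2 probe sets) and SMG5 at 0.26 ± 0.02 (2), and the exon junction proteins EIF4A3 at -0.25 (1) and RBM8A at -0.21 ± 0.33 (6). The glucocorticoid receptor and its targets split evenly, 6 above 0 and 6 below of 12 measured (7 and 5 when scaled). Of the 12, 1 was higher by 1.5-fold or more and 1 lower, beside 2.63% and 2.38% of all genes. PCK1, the gluconeogenic enzyme, was at -0.90 (1 probe set) and DUSP1, a phosphatase of MAP kinases, at 0.68 ± 0.39 (3). KLF9 was at -0.42 ± 0.46 (5) and CEBPD at 0.40 ± 0.34 (2).

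H19 was read by 2 probe sets, both with names ending in _x_at and both naming MIR675 as well, and they disagreed. Probe set 224646_x_at read -0.19 in the control and 0.19 with CD24 shRNA, a difference of 0.38. Probe set 224997_x_at read 0.11 and -0.11, a difference of -0.22, with its dimmer array placed below 8. Their mean of 0.08 ± 0.43 gives H19 no direction, and neither array value speaks of the mature miR-675 arms shown above.

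MEG3, the maternally expressed RNA of the DLK1 cluster, lay near 0, with 5 of its 10 probe sets placed in the dim end. Its 10 probe sets averaged -0.06 ± 0.21 (SD, 10 probe sets), with 3 above 0, 6 below and 1 equal. The dimmer array was placed below 4 for 5 of them and below 8 for a further 3. The 2 ends of the range were both among those below 4: 227390_at read 0.25 in the control and -0.25 with CD24 shRNA, 1.42-fold lower, and 226211_at read -0.14 and 0.14. Scaling on the hybridisation controls moved the mean across 0, to 0.02.

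The letters of the cAMP response element, TGACGTCA, were found in 1.85% of all promoters. MEG3 has 1 copy, 50 bases before the first of its 3 start sites, and the overlapping windows of all 3 hold this same copy. The letters were in none of the other 7 member start sites.

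Imprinted genes, including those around H19 and MEG3, had 12 members above 0 and 7 below of 19 measured (13 and 6 when scaled), with a median of 0.05. Of the 19, 2 were higher by 1.5-fold or more and 1 was lower by as much, beside 2.63% and 2.38% of all genes. CDKN1C, a cell cycle inhibitor of the H19 region, was at 0.78 ± 0.55 (SD, 5 probe sets), PEG10, a gene derived from a retrotransposon, at 0.73 ± 0.39 (2), and PLAGL1, a zinc finger factor, at -0.40 ± 0.11 (3). DLK1, a Notch-related ligand that lies next to MEG3, averaged -0.75 ± 0.75 on 2 probe sets that read -1.28 and -0.22, 1 of them placed below 4. The RNA-binding proteins and deadenylase subunits known to act on H19 and HULC were evenly split, 8 and 8 of 16 (12 and 4 when scaled). Of the 16, 1 was higher by 1.5-fold or more and 0 lower, beside 2.63% and 2.38% of all genes. LIN28B, a blocker of let-7 processing, was at 0.73 (1 probe set), CNOT8, a deadenylase, at -0.52 ± 0.30 (3), DROSHA at -0.23 (1) and IGF2BP3 at 0.19 ± 0.28 (4).

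TUG1, first known from the developing retina, was the RNA with the highest mean. Of its 6 probe sets 5 lay above 0, and the mean was 0.17 ± 0.25 (SD, 6 probe sets) with a median of 0.24. Probe set 228397_at read -0.19 in the control and 0.19 with CD24 shRNA, 1.30-fold higher, and 212337_at read -0.13 and 0.13, both placed between 4 and 8. Probe sets 212725_s_at and 222244_s_at had differences of 0.25 and 0.23, and 230635_at, placed below 4, one of 0.20. The sixth, 229301_at, read 0.16 and -0.16, a difference of -0.33, and was also placed below 4. Without the pair placed below 4 the mean was 0.28.

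The letters of an E-box, CACGTG, stood 77 bases before the TUG1 start and in 7.26% of all promoters, and in none of the other 9 member start sites. The shorter ACGTG, the core of the hypoxia element, is contained in it on both strands, which gave its 2 matches in TUG1, and was found in 21.4% of promoters. The antioxidant element core TGACNNNGC was found in 1 MALAT1 window (13.3% of promoters) and the STAT element TTCNNNGAA in that of DANCR (7.66%), all searched on both strands.

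HOTAIR, transcribed from the HOXC cluster, read 0 on both arrays on its 1 probe set, so these arrays gave it no difference. Of all 41091 probe sets that name 1 gene, 2274 were equal in this way. The level of an equal probe set could not be placed, so whether HOTAIR was detected is not known. Of the HOXC genes 4 lay above 0 and 5 below of 9 measured (6 and 3 when scaled), from HOXC10 at -0.28 to HOXC9 at 0.33, with 1 probe set each. Of the HOXD genes, which HOTAIR is reported to silence, 6 lay above 0 and 2 below of 8 measured (7 and 1 when scaled), with a median of 0.09 and the largest size at HOXD1, -0.43 ± 0.32 (SD, 2 probe sets). All genes split 9770 above to 9402 below, and 12974 to 6801 when scaled. The polycomb and LSD1 complexes had 7 above 0 and 12 below of 19 (11 and 8 when scaled), a median of -0.06 and no gene past 1.5-fold. PHF19, a polycomb accessory protein, was at 0.46 ± 0.06 (3 probe sets), the chromodomain proteins CBX6 at -0.46 ± 0.06 (2) and CBX7 at -0.43 (1), and the core subunit EED at -0.41 ± 0.18 (2).

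HULC has no value here, but genes of protein kinase A and CREB, which is known to drive its promoter, had 5 above 0 and 14 below of 19 measured (9 and 10 when scaled), with a median of -0.09. PCK1, given above, is among them and was the sole one past 1.5-fold, where 2.38% of all genes were lower by as much. The catalytic subunits PRKACB and PRKACA were at 0.45 ± 0.42 (SD, 3 probe sets) and 0.37 ± 0.14 (2), and NR4A1, an early response target, at -0.33 ± 0.19 (3). Targets of p53, to which MEG3, NEAT1 and SNHG1 have been linked, had 5 above 0 and 10 below of 15 (7 and 8 when scaled), with CDKN1A, the cell cycle inhibitor p21, at -0.57 (1 probe set), TP53I3 at 0.48 (1), SESN1 at 0.41 (1) and ZMAT3 at 0.33 ± 0.29 (5). Other long noncoding RNAs of cancer had 11 above 0 and 22 below of 35 measured (15 and 20 when scaled), with a median of -0.13. Of all 19775 genes 9402 lay below 0, and 6801 when scaled. Of the 35, 2 were lower by 1.5-fold or more and 0 higher, beside 2.38% and 2.63% of all genes: DLEU1 at -0.76 (1 probe set) and the hypoxia-linked MIR210HG at -0.62 ± 0.13 (2), which is no longer past 1.5-fold when scaled (1 of 35). With probe sets that also name small RNAs inside, 36 genes were measured and MIR22HG was the largest in size, at 0.93 (1 probe set), so that 1 was higher by 1.5-fold or more and 2 lower. UCA1 was at 0.46 (1) and OIP5-AS1 at -0.42 ± 0.15 (3).

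**Figure D4:**
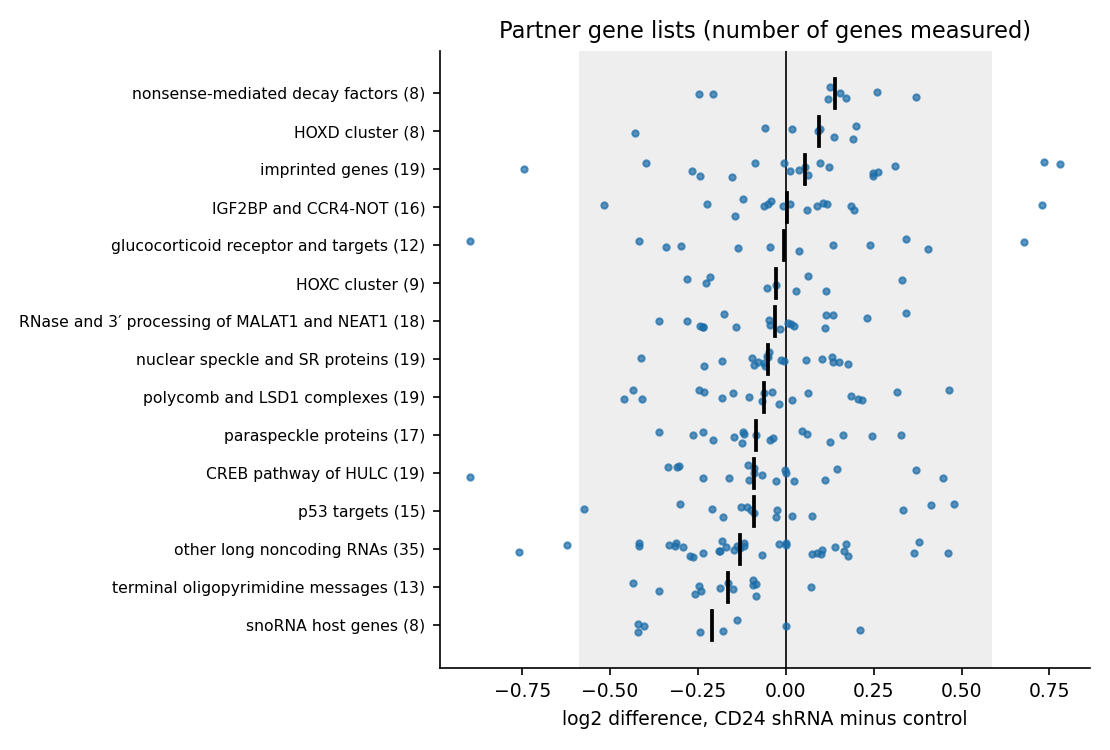
Mean log2 difference, CD24 shRNA minus control, of each measured gene in 15 lists of partner genes, with the list's median as a black bar and differences under 1.5-fold in grey. Medians run from -0.21 for small nucleolar RNA hosts to 0.14 for nonsense-mediated decay factors.

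Genes beside each RNA were read in the order of the RefSeq table, as the nearest gene with a value on each side and any gene that overlaps. Apart from MALAT1, the neighbour of NEAT1, 23 different genes were so found, of which 15 lay above 0 and 8 below, with a median of 0.12. All 19775 genes split 9770 above to 9402 below, and 12974 to 6801 when scaled on the hybridisation controls. The split of the 23 is given without scaling. LTBP3, CENPL and GAS5-AS1 lay below 0 by less than the 0.08 that scaling adds. Of these 3 were higher by 1.5-fold or more and 2 were lower by as much, beside 2.63% and 2.38% of all genes.

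These 5 lay next to RNAs that themselves stayed within 1.5-fold. SERPINC1, the liver's antithrombin, next to GAS5, was at -1.09 ± 0.23 (SD, 2 probe sets), while on its other side CENPL was at -0.03 ± 0.08 (2), and the overlapping GAS5-AS1 and ZBTB37 were at -0.04 (1) and 0.10 ± 0.09 (3). USP46-DT, next to DANCR, was 2.83-fold higher, a log2 difference of 1.5 (1 probe set), and ERVMER34-1 on the other side at 0.24 (1). SMTN, the actin-binding protein smoothelin, next to TUG1, was at 0.79 ± 0.49 (3), and MORC2 at 0.13 ± 0.15 (3). SLC3A2, the shared heavy chain of several amino acid transporters, next to SNHG1, was at 0.70 (1), opposite in sign to SNHG1, and WDR74 at 0.20 ± 0.62 (3). DLK1, at -0.75, lay next to MEG3, with MEG9 on the other side at 0.31 (1).

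For the other RNAs the neighbours lay within 1.5-fold. MALAT1 lay between FRMD8 at 0.13 ± 0.31 (SD, 4 probe sets) and LTBP3 at -0.05 ± 0.02 (3), and NEAT1 between FRMD8 and MALAT1. H19 had IGF2-AS at -0.35 (1), TNNT3 at 0.12 ± 0.03 (2) and the overlapping MRPL23 at -0.15 ± 0.22 (2). IGF2 itself is neither among these neighbours nor among the imprinted genes measured above. HOTAIR had HOXC12 at -0.23, HOXC-AS3 at 0.17 and the overlapping HOXC11 at 0.06, each with 1 probe set. Beside HULC, which had no value itself, lay SLC35B3 at 0.18 ± 0.18 (2) and OFCC1 at 0.07 ± 0.26 (11), with the overlapping LOC100506207 at 0.25 ± 0.08 (2).

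**Figure D5:**
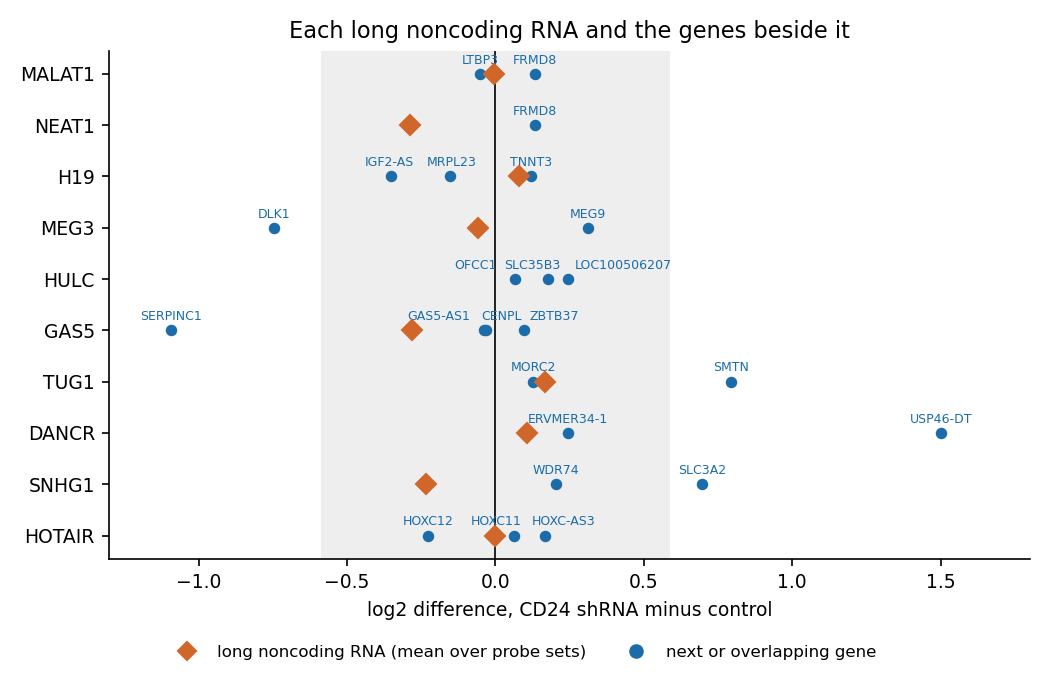
Mean log2 difference, CD24 shRNA minus control, of each long noncoding RNA (diamonds; none for HULC) and of the genes next to it or overlapping it (circles, labels shifted sideways where they would collide). There are 5 neighbours that lie outside the grey band of differences under 1.5-fold, from SERPINC1 at -1.09 to USP46-DT at 1.5, and no diamond does.

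Ordered by mean, the 9 RNAs ran from NEAT1 (-0.29), GAS5 (-0.28) and SNHG1 (-0.23) through MEG3 (-0.06), MALAT1 (-0.0039) and HOTAIR (0) to H19 (0.08), DANCR (0.11) and TUG1 (0.17). The whole span was 0.46 and the largest gap between neighbours in that order 0.17, between SNHG1 and MEG3. With 1 array per group the spread of a mean between cultures is not known, so the order is a description. GAS5 was the RNA with more than 2 probe sets whose values all shared a sign, and over the 9 RNAs the median was -0.0039, against 0 over all 19775 genes.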

How the data were processed

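Gene expression in 2 Huh7 cultures was measured on 1 Affymetrix array each. The table deposited by the authors holds log2 values. The submitters' processing notes name RMA, which corrects background, normalises the arrays and summarises probes. Neither software nor version is given. The deposited table is centred: the 2 values of every probe set sum to 0 within 2e-06, each column's median is 0, and the range is -2.01 to 2.01.

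Probe sets were named through GEO's platform annotation: 41091 name 1 gene (19775 genes), 1801 several and 11721 none, beside 62 control probe sets. The gene value is the mean over its probe sets, and 1.5-fold and 2-fold were counted. No test was possible with 1 array per group, a number that limits the precision. Levels were placed from rounding steps of the single-precision numbers. This step was tested only on simulated data centred in the way it assumes and not written out as decimal numbers, so the deposited values were not checked. Of 107 probe sets of cytosolic ribosomal proteins it placed 7 below 4 and 39 at 8 or above. The RNAs, the gene lists and the rule for named genes (the RNAs, their neighbours, and up to 4 genes of each list with the largest difference) were chosen with earlier results of these data known. Python 3.11.15, pandas 2.3.3, numpy 2.4.6 and matplotlib 3.10.9 were used.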

Additional observations from a re-analysis of the deposited data

How the results depend on the processing

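Of 54 alternative values for the RNAs, 27 equalled the main value, most of them because the RNA has 1 probe set or because the centring moves nothing, and say nothing of stability. Of the other 27, 23 moved by less than the SD over probe sets and 4 by more. The main value of GAS5 was here -0.16, from the probe set that names only GAS5, and -0.28 over all 5 was an alternative. For GAS5, DANCR, SNHG1 and HOTAIR, with 1 probe set in the main value, the SD was the pooled 0.27. Read by the probe set with the largest difference, MALAT1 was at 0.76, NEAT1 at -1.01 and MEG3 at -0.50, and MALAT1 was also at 0.76 without probe sets whose names end in _s_at or _x_at, since 1 probe set is then left. H19 has no value under that choice. With probe sets that also name small RNAs, 3 probe sets in place of 0 were at least 1.5-fold lower and 1 in place of 0 at least 2-fold lower, the last lost again when also scaled. Scaled on the hybridisation controls, the means of MALAT1 (0.07) and MEG3 (0.02) lay above 0, and the median over the 6 RNAs with probe sets of their own was 0.08. The median over those 6 was 0.05 without probe sets ending in _s_at or _x_at. No paired analysis was possible because each group has 1 array. The spread between cultures was not measured, so no difference can be set against it, and an RNA with 1 probe set has no check on that probe set either.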
